A study of Homo sapiens with 26 samples.

Results

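Huh7 cells, a human hepatoma line, gave 4 mRNA-seq libraries in the second study, out of 26 samples in the series. They were chosen by their labels: 2 libraries came from cells given 1.5 µM PF-06446846 for 60 min (replicates 4 and 5) and 2 from cells given DMSO vehicle for 60 min (replicates 4 and 5). All 4 were polyA RNA, fragmented and built like the ribosome footprint libraries, and the cells were harvested into cycloheximide. The study calls its replicates biological, but the labels do not say whether these libraries came from separate cultures, so p-values measure only the spread between these libraries. Reads were counted per codon of the coding sequence (CDS) of 12325 transcripts, and each library held between 15227654 and 22036358 such reads.

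PF-06446846 binds the ribosome and halts translation of a small set of proteins while the growing chain is in the exit tunnel, most often early in the protein. Ribosome footprints mark where ribosomes sit, whereas mRNA-seq of the same cells measures the template, so a drop in footprints can be read against the amount of mRNA only when both are measured. The comparison here asks whether the mRNA changed within 60 min of treatment, in which gene classes, and how small a change 2 libraries a side could show.

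The libraries carried the RNA of hepatoma cells. Of 14 hepatocyte markers, 12 had a transcript under their name. AFP, the fetal plasma protein made by hepatoma cells, stood at 4.34 and 4.76 RPM per codon in the treated libraries and at 4.51 and 4.68 in the vehicle libraries, beside a median of 0.0568 over all transcripts, where RPM are reads scaled by the CDS total of the library. Of 15 markers of fibroblasts, endothelium and leukocytes, 4 had a transcript under their name and none of the 4 was at 0: DCN spanned 0.0408 to 0.0696, PECAM1 0.0163 to 0.0199, CD68 0.127 to 0.159 and LYZ 1.06 to 1.22. On this per-length scale LYZ, the secreted lysozyme, was well above the median transcript in all 4 libraries, with overlapping groups.

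Vehicle replicate 5 stood apart from the other 3 libraries. It held the most CDS reads, 22036358, but had reads on the fewest transcripts, 11975 beside 12006 to 12043 in the others. The reason was not tested. Across 8563 transcripts with a mean of at least 200 reads, the median absolute log2 difference was 0.152 between the 2 vehicle libraries and 0.111 between the 2 treated libraries. Treated replicates 4 and 5 differed from vehicle replicate 4 by a median of 0.101 and 0.106, less than the treated libraries differed from each other. Against vehicle replicate 5 the same values were 0.157 and 0.138. At least 2-fold differences were found in 37 transcripts between the 2 vehicle libraries, in 6 between the treated libraries and in 3 for each treated library against vehicle replicate 4. The log2 difference of treated replicate 5 to vehicle replicate 5 had a Spearman correlation of -0.486 with the GC content of the CDS, and that of vehicle replicate 4 to vehicle replicate 5 one of -0.36, over 7900 transcripts of these same libraries. In the other pairs the correlation was 0.307 for treated replicate 4 against treated replicate 5, 0.215 for treated replicate 4 against vehicle replicate 4, -0.24 for treated replicate 4 against vehicle replicate 5 and -0.124 for treated replicate 5 against vehicle replicate 4. The part of base composition in the results below was not tested.

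**Figure D1:**
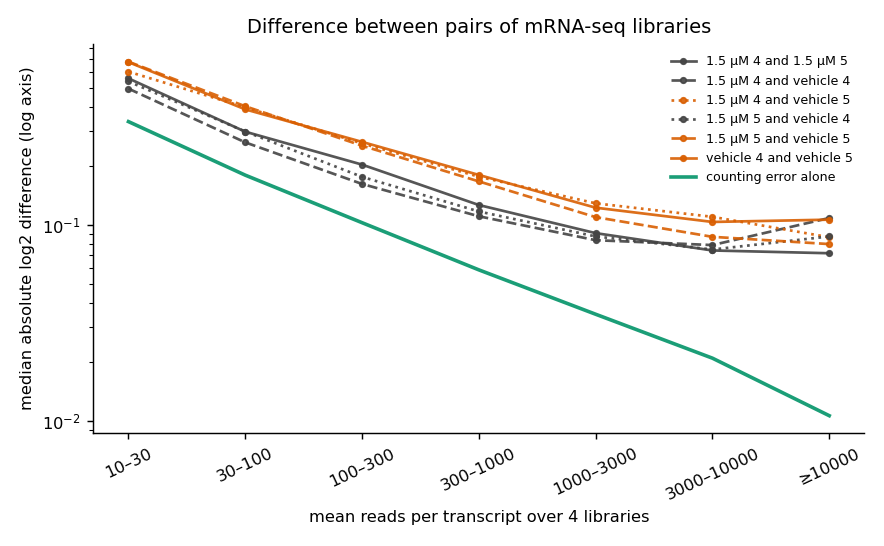
Median absolute log2 difference in CPM (counts scaled by the TMM-adjusted library size) between each pair of the 4 mRNA-seq libraries (vertical, log axis), by the mean reads of the transcript (horizontal). Orange lines are pairs that include vehicle replicate 5, grey lines the other pairs, and the green line the difference that counting error alone would give. All 6 pairs lie above the green line at every depth.

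Differences between libraries exceeded the counting error at every depth. For transcripts with 1000 to 3000 mean reads, counting alone would give a median difference of 0.0330 to 0.0366, while the pairs of libraries gave 0.0833 to 0.128. No pair agreed within sampling noise: chi-square per transcript, near 1 for one library sequenced again, ran from 8.81 to 23.2. The biological coefficient of variation fitted by edgeR was 11.8% for mRNA-seq and 7.33% for the 4 footprint libraries of the same study, with median standard errors of the log2 fold change of 0.161 and 0.125. A 95% interval in the mRNA-seq comparison reached a median of 1.145-fold to either side at 3000 to 10000 reads and 2.387-fold at 10 to 30 reads.

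No transcript changed past the threshold. With edgeR's quasi-likelihood test and Benjamini-Hochberg adjustment, 0 of 11812 transcripts tested (0%) reached an adjusted p of 0.1. An unadjusted p under 0.05 was found for 228 (1.93%), of which 139 (1.18%) were higher and 89 (0.753%) lower in treated cells. That share is below the 0.05 that evenly spread p-values would give. The absence of calls thus does not show that no mRNA changed. Both treated libraries lay above both vehicle libraries for 1708 transcripts (14.5%) and below both for 1804 (15.3%). DESeq2, fitted to the same counts, put 1 transcript past the threshold, FOXC1. Without vehicle replicate 5 the edgeR test gave 250 transcripts at an unadjusted p under 0.05 and 0 past the threshold. Without vehicle replicate 4, which leaves vehicle replicate 5 as the lone control assumed to vary like the treated libraries, it gave 1772 and 1.

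FOXC1, a forkhead transcription factor, had the smallest p of the named transcripts. Its level was 51.6 and 31.8 CPM in treated replicates 4 and 5 and 20.5 and 20.8 CPM in the vehicle replicates. The groups did not overlap, and the 2 treated libraries differed from each other by more than treated replicate 5 did from the vehicle. The log2 fold change was 1.02 ± 0.21 (SE, n = 2 a side), with an edgeR adjusted p of 0.999 and a DESeq2 adjusted p of 0.0723. Without treated replicate 5 the log2 fold change was 1.32 and without treated replicate 4 it was 0.62.

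The other transcripts with the largest differences had few reads. Among transcripts with a mean of at least 50 reads and no overlap between the groups, the 10 highest log2 fold changes ran from 0.91 to 1.84 and the 10 lowest from -1.03 to -0.77, all with an edgeR adjusted p of 0.999. The highest belonged to ENST00000399974, with a CDS of 29 codons, at 9.19 and 7.92 CPM in treated and 3.90 and 0.995 CPM in vehicle libraries, and ENST00000604646, with 25 codons, at 11.9 and 7.07 CPM against 4.35 and 1.40 CPM. Another transcript of 25 codons was also among the 10, and its log2 fold change of 0.91 was 0.32 without vehicle replicate 5 and 1.85 without vehicle replicate 4. Among those with a gene name, ZNF354B, a zinc finger protein, had 5.18 and 4.23 CPM against 2.77 and 0.950. BLZF1, a Golgi protein, had 8.39 and 7.66 against 5.31 and 2.67 CPM. ITGB8, an integrin subunit, had 9.19 and 7.66 against 5.20 and 3.30 CPM. In all 3 the lower vehicle library was replicate 5. Without it the log2 fold change was 1.14 for both ENST00000399974 and ENST00000604646, 0.78 for ZNF354B and 0.60 for BLZF1, and without vehicle replicate 4 it was 3.10, 2.76, 2.31 and 1.59. NABP1, a single-strand DNA binding protein, had a log2 fold change of 1.00 and CDPF1 0.96.

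The 10 lowest included the secreted plasma proteins C8B and TCN2. C8B, a complement component, had 2.56 and 2.64 CPM in treated and 3.39 and 5.70 CPM in vehicle libraries. TCN2, the carrier of vitamin B12, had 2.03 and 2.51 against 3.45 and 4.25 CPM. The lowest value was that of MATCAP1, a tubulin tyrosine carboxypeptidase, at -1.03, followed by SLFN13 at -1.01, FAM131A at -0.93, WDR5B at -0.89 and a 185-codon transcript of NBAS at -0.89. TMEM117 stood at -0.83 and SPOCK2, an extracellular proteoglycan, at -0.78. For MATCAP1 and SLFN13 vehicle replicate 5 had the highest level, 7.15 and 9.32 CPM, beside 3.22 and 5.31 CPM in vehicle replicate 4. Without vehicle replicate 5 their log2 fold changes were -0.32 and -0.53, and those of C8B and TMEM117 were -0.38 and -0.39. FAM131A stood at -1.51 without treated replicate 4 and at -0.54 without treated replicate 5. On their 3 most read adjacent codons, C8B, SPOCK2, SLFN13 and MATCAP1 had 26, 18, 20 and 25 reads in vehicle replicate 5. Vehicle replicate 4 had 0, 0, 0 and 2 there, and no treated library had over 3. Without such codons their log2 fold changes were -0.63, -0.65, -0.95 and -0.91. TCN2 and TMEM117 rose to -0.65 and -0.71, while NBAS, FAM131A and WDR5B did not rise, at -0.96, -0.94 and -0.89.

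Part of the differences sat on very few codons. In a typical transcript with a mean of at least 50 reads, the 3 adjacent codons with the most reads held a median of 2.84% of its reads. In 147 of 10932 such transcripts (1.34%) they held at least 25%, and this was so in 9 of those higher in treated cells at an unadjusted p under 0.05 (7.32%) and in 2 of those lower (3.03%). CEBPB, a stress-responsive transcription factor, had 1497 and 665 reads on the 3 codons around codon 167 in treated replicates 4 and 5, and 525 and 605 in the vehicle libraries. Scaled by depth these were 81.17 and 43.67 RPM against 29.28 and 27.45 RPM. On the rest of its CDS it had 1521 and 1262 treated reads against 1444 and 2136 vehicle reads. Those were 82.47 and 82.88 RPM against 80.54 and 96.93 RPM. With all reads its log2 fold change was 0.29 ± 0.12 (SE, n = 2 a side; unadjusted p = 0.0346, edgeR adjusted p = 0.999), and without the 3 codons it was -0.13. With all reads it was 0.12 without treated replicate 4 and 0.45 without treated replicate 5. SLC19A2, a thiamine transporter, had 341 and 173 reads around codon 12 in treated and 62 and 70 in vehicle libraries, and its log2 fold change went from 0.51 to -0.01 without them. PSMG1, a proteasome assembly chaperone, had 448 and 355 reads around codon 27 against 131 and 153, and its value went from 0.32 to 0.02. These codons held 17.9% of the reads of PSMG1, under the 25% that defines a pile here. In these 3 genes both treated libraries were above both vehicle libraries at the 3 most read codons. SLC19A2 and PSMG1 were chosen after their values were seen. Of the 72 piled windows with a mean of at least 50 reads, 17 (23.6%) had both treated libraries above both vehicle libraries and 5 (6.94%) had both below, in reads per total reads of the library. Over the most read 3 codons of all 1622 transcripts with that many reads there, the shares were 5.86% and 22.3%, and over whole transcripts 14.5% and 15.3%. The most read codons were picked on reads of the 4 libraries pooled without scaling. Vehicle replicate 5, the deepest library, thus weighed most in the pick, and the shares over the 1622 are no neutral background. The piled windows were chosen by their share of the reads of both groups pooled. Of the 72, 5 reached 25% through the treated libraries alone, SLC19A2 and CEBPB among them, and 1 through the vehicle libraries alone. The choice thus used these reads, and the counts describe the chosen windows and are no test. Of the 66 that reached it in each group, 14 had both treated libraries above and 4 had both below. In the piled windows the median log2 difference was 0.358 for treated replicate 4 over vehicle replicate 4, 0.22 for treated replicate 4 over treated replicate 5 and -0.0224 for treated replicate 5 over vehicle replicate 5.

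The coding sequence at these codons is shown because so many reads sit there. The 3 piled codons of CEBPB and SLC19A2 hold only G and C. Sequences are from GENCODE transcripts on GRCh38, 5′ to 3′, with the 3 most read codons in capitals, at chr20:50191529-50191537 for CEBPB (plus strand), chr1:169485728-169485736 for SLC19A2 (minus strand) and chr21:39183302-39183310 for PSMG1 (minus strand).
CEBPB: ccgcccccgCCGCCGCCGccgcccgcc
SLC19A2: tctcggcggGCGGCGGCGgcggcggcc
PSMG1: gaggaggagGAGGGGCGGagggagacg
A coding sequence of the deposited length was found for 82 of the 147 transcripts with such a pile, so a check of repeats over all of them is void. FOXC1 had 60.3% of its treated and 60.8% of its vehicle reads on the 3 codons around codon 490, and its log2 fold change without them was 1.03. ENST00000399974 had 99.2% of its reads on 3 codons and ENST00000604646 88.1%, and no value without these codons was obtained.

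**Figure D2:**
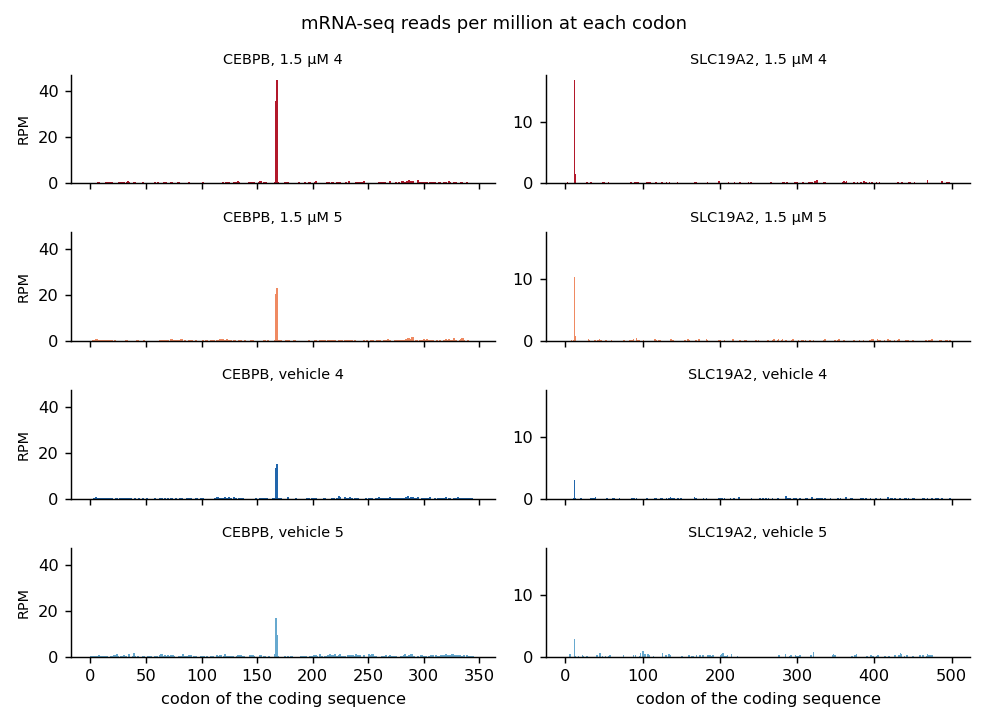
mRNA-seq RPM (reads scaled by the CDS total, vertical) at each codon (horizontal) of CEBPB (left) and SLC19A2 (right) in the 4 libraries, 1 row of panels each. One narrow peak stands in each panel, around codon 167 of CEBPB and around codon 12 of SLC19A2, and it is tallest in treated replicate 4.

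None of the genes whose translation the compound stalls changed in mRNA past the threshold. The 21 stall targets were named by the study from footprints of this series, so their footprint values are given as a description. Their median mRNA log2 fold change was -0.002, beside -0.001 over all transcripts tested. In mRNA, 0 of 21 had an unadjusted p under 0.05, beside 1.93% of all transcripts tested, a share at which so few genes can tell little. There were 10 above 0 and 11 below (49.8% and 50.2% of all transcripts tested), and all 21 of the 95% intervals held 0. The lower bound was above -0.5 in 20 and above -1 in all 21. The groups did not overlap in 6 targets, 4 higher (19.05%, beside 14.5% of all transcripts) and 2 lower (9.52%, beside 15.3%). Footprints here were summed over the whole CDS, at and before the stall included, whereas the study used reads after the stall site. Values near 0, as for CDH1 (0.08) and CD99 (-0.09), thus do not measure the change after the stall. The median footprint log2 fold change of the same genes was -0.52. The value was below 0 in 20 of 21 and past the threshold in 9, with no share over all transcripts taken. In 15 the whole mRNA interval lay above the footprint value, whose own error was left out.

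**Figure D3:**
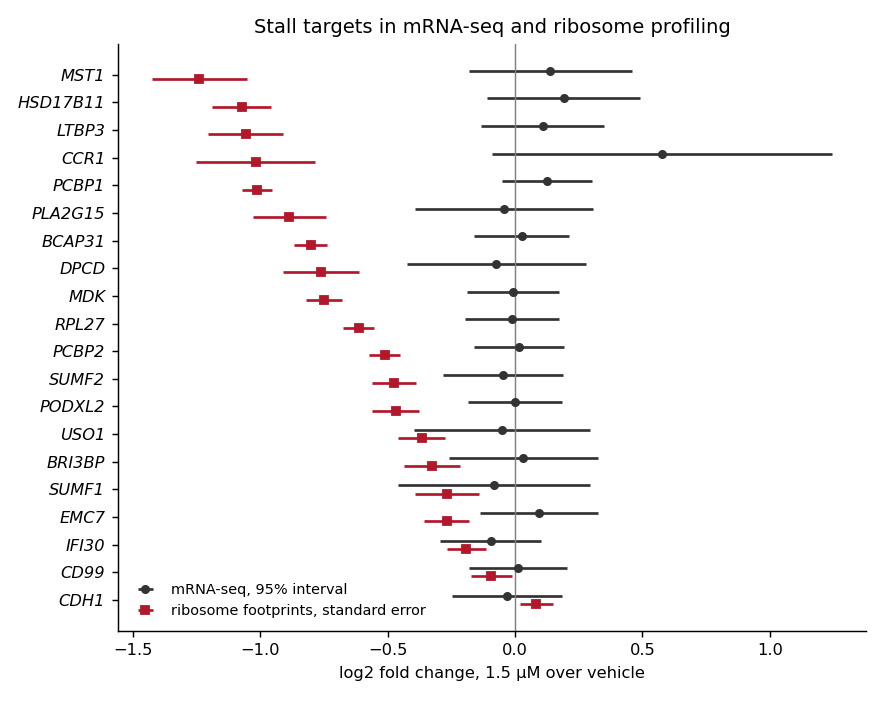
log2 fold change of 1.5 µM over vehicle (horizontal) for stall targets named here (vertical), in mRNA-seq (black, 95% interval, 2 libraries a side) and in ribosome footprints of the same study (red, standard error, 2 libraries a side). All black intervals span 0, while every red point but that of CDH1 lies below 0. Footprints are counted over the whole CDS, the stall included.

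PCBP1, an RNA binding protein, had 583 and 584 CPM of mRNA in treated and 526 and 544 CPM in vehicle libraries. Its treated libraries were both the higher ones, and the log2 fold change was 0.13 (95% interval -0.05 to 0.30) in mRNA, beside -1.01 in footprints. Reads of PCBP1 and PCBP2 can be shared, since the sequences are closely alike, so their values are uncertain and not separate measurements. MDK, the growth factor midkine, had 309 and 298 CPM against 305 and 305 CPM. That is -0.01 (-0.19 to 0.17) in mRNA beside -0.75 in footprints. RPL27, a protein of the large ribosomal subunit, had 1089 and 1181 CPM against 1177 and 1111 CPM, with overlapping groups, a mRNA value of -0.01 (-0.20 to 0.17) and a footprint value of -0.61. HSD17B11, a steroid dehydrogenase, had 53.5 and 67.03 CPM against 55.9 and 49.7 CPM. Its mRNA log2 fold change was 0.19 (-0.11 to 0.49) and its footprint value -1.07. BCAP31, a chaperone of the endoplasmic reticulum, had 223 and 238 against 229 and 224 CPM, which is 0.03 (-0.16 to 0.21) in mRNA and -0.80 in footprints. LTBP3, a latent TGF-beta binding protein, and MST1, a secreted growth factor of the liver, had mRNA values of 0.11 and 0.14 and footprint values of -1.06 and -1.24.

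The widest interval belonged to the least read target. CCR1, a chemokine receptor with a mean of 70.8 reads, had 4.59 and 4.76 CPM in treated and 3.00 and 3.26 CPM in vehicle libraries. The groups did not overlap and the log2 fold change was 0.58 (-0.09 to 1.25, unadjusted p = 0.0838, edgeR adjusted p = 0.999). A further group of 12 targets had mRNA log2 fold changes between -0.10 (IFI30, a lysosomal thiol reductase) and 0.09 (EMC7, a subunit of an insertase of the endoplasmic reticulum). Between these were PCBP2, PLA2G15, PODXL2, SUMF1, SUMF2, USO1, BRI3BP, CD99, CDH1 and DPCD. EFNA3, an ephrin ligand, is not a stall target but the only gene for which the study reported a difference in mRNA. Here it had a mean of 28 reads, at 0.588 and 1.85 CPM in treated and 0.848 and 2.62 CPM in vehicle libraries. The groups overlapped and the interval ran from -2.03 to 0.89.

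The codon at which footprints pile up showed no matching median rise in mRNA reads. For each target this codon, called the footprint peak codon, was taken as the codon with the largest rise of footprints in the 6 libraries of the first study (1.5 µM and vehicle, 60 min). It is a peak by this rule alone and can lie elsewhere than the stall position that the study lists for a gene. Its sequence is shown for 5 targets because it marks where footprints and mRNA reads part, with the footprint peak codon in capitals and 4 codons to either side, 5′ to 3′, from GENCODE transcripts on GRCh38.
HSD17B11: ccgttactgatcGTCtgctccctagag
PCBP1: attcggcttcttATGcacggaaaggaa
MDK: atgcagcaccgaGGCttcctcctcctc
RPL27: tccggacgcaaaGCTgtcatcgtgaag
USO1: atgctacagcttGTTcgtgtattggta
These codons lie in the CDS at chr4:87391023-87391025 on the minus strand (HSD17B11, codon 16) and, on the plus strand, at chr2:70087801-70087803 (PCBP1, codon 20), chr11:46382070-46382072 (MDK, codon 5), chr17:42998817-42998819 (RPL27, codon 23) and chr4:75787065-75787067 (USO1, codon 287). In a window of 5 codons around it, HSD17B11 had 29.9 footprint RPM with the compound and 3.97 with vehicle. In mRNA-seq the same window held 0.922 and 0.657 RPM in treated and 1.28 and 1.82 in vehicle libraries. For RPL27 the footprint values were 313 and 68.5 RPM, and the mRNA values were 40.9 and 49.5 in treated and 49.1 and 49.3 in vehicle libraries. Over the targets, the median ratio of treated to vehicle in the window was 3.35 in footprints, from which the codon was chosen, and 0.858 in mRNA (range 0.354 to 2.42). No test was run on these windows.

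Reads up to and after the footprint peak codon were also compared within each library. The log2 ratio of reads after to reads up to the footprint peak codon, treated minus vehicle, had a median of 0.17 over the 21 targets, with 15 above (71.4%) and 6 below 0. Without vehicle replicate 5 the median was -0.03, with 9 above and 12 below 0, so the sign rested on that library. The same ratio at codon 50 was above 0 in 50.8% of 8790 transcripts with all 4 libraries and in 44.2% without vehicle replicate 5. The groups did not overlap in 3 targets, 2 higher and 1 lower. At codon 50 in all these transcripts the treated libraries were both higher in 13.5% and both lower in 15.7%. For MDK the log2 ratio was 4.67 and 4.46 in treated and 4.41 and 4.13 in vehicle libraries. For PCBP1 it was 3.96 and 3.92 against 3.81 and 3.98. The differences ran from -1.09 in SUMF1, a sulfatase-modifying enzyme, to 0.95 in BRI3BP. SUMF1 had log2 ratios of 4.51 and 3.52 in treated and 4.05 and 6.17 in vehicle libraries, and BRI3BP 3.75 and 4.22 against 3.94 and 2.14. Vehicle replicate 5 was the extreme library in both. No test was run on these ratios.

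Over all transcripts, reads before and after codon 50 were compared in 1 fit. Of 8790 transcripts tested, 0 (0%) passed the threshold, and 234 (2.66%) had an unadjusted p under 0.05, 136 higher (1.55%) and 98 lower (1.11%) before codon 50 in treated cells. Without vehicle replicate 5 there were 5 past the threshold, with SLC19A2, RANBP2 and RGPD5 among them, and without vehicle replicate 4 there were 1082. Of the 18 stall targets tested, 0 had an unadjusted p under 0.05. SLC19A2 had 369 and 201 treated reads before codon 50 against 80 and 117 in vehicle libraries, most of them on the piled codons shown above. RANBP2, a nuclear pore protein, had 32 and 36 against 9 and 11 reads there, and RGPD5, a near-identical relative, 28 and 39 against 8 and 11, so that their reads cannot be told apart. Both were chosen after their values were seen. The mean relative position of reads along the CDS was 0.512 and 0.513 in treated and 0.514 and 0.510 in vehicle libraries over 9082 transcripts. The groups overlapped (difference 0.00012, two-sided exact permutation p = 1, where 2 against 2 cannot go below 2 of the 6 arrangements).

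Among 15 further gene lists, chosen for the pathways that a translation inhibitor or a hepatocyte could engage, none held a transcript past the threshold. Medians ran from -0.10 (replication-dependent histones) to 0.12 (mitochondrially encoded mRNAs), beside -0.001 over all transcripts. Both extremes turned sign with 1 library left out: the histone median was 0.218 without vehicle replicate 5 and also above 0 without treated replicate 4, and the mitochondrial median -0.0793 without treated replicate 5.

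**Figure D4:**
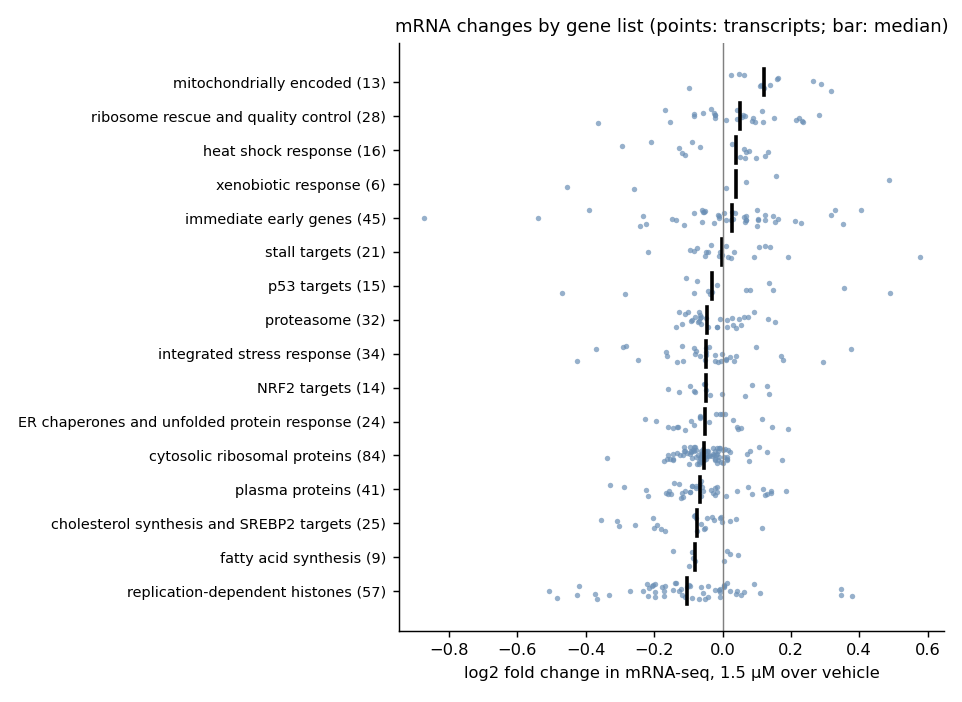
mRNA-seq log2 fold change of 1.5 µM over vehicle (horizontal) for the transcripts of 16 gene lists (vertical, number tested in parentheses). Points are transcripts and bars are list medians. The medians lie between -0.10 and 0.12.

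No transcript of the stress pathways passed the threshold. Of 34 transcripts of the integrated stress response, the program that follows eIF2 alpha phosphorylation, 10 were above and 24 below 0, with a median of -0.05. Only CEBPB, 1 of the 34, had an unadjusted p under 0.05, beside 1.93% of all transcripts, and its value rested on the 3 codons described above. Both treated libraries were below both vehicle libraries for 7 of the 34 (20.6%, beside 15.3% of all transcripts) and above for 1 (2.94%, beside 14.5%). Of 24 chaperones of the endoplasmic reticulum and unfolded protein response genes, 8 were above 0 (median -0.05). CALR, a calcium-binding chaperone, had 1333 and 1360 CPM in treated and 1485 and 1336 CPM in vehicle libraries, and P4HB, a protein disulfide isomerase, 622 and 617 against 703 and 572 CPM. The groups overlapped for both. Heat shock genes (16 tested) had a median of 0.04. HSPA8, a cytosolic chaperone, had 2048 and 1745 against 2261 and 1831 CPM, with overlapping groups. NRF2 targets, the oxidative stress program, had a median of -0.05 over 14 transcripts, where FTH1 and FTL, the ferritin chains, stood at -0.05 and -0.04. Targets of p53 had a median of -0.03 over 15, with BAX, a death effector, at -0.04 and TNFRSF10B, a death receptor, at -0.02.

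Immediate early genes, which respond to stimuli within minutes, had a median of 0.03 over 45 transcripts, 26 of them above 0. An unadjusted p under 0.05 was found for 0 of the 45, beside 1.93% of all transcripts. CCN2, a matricellular protein, had 283 and 228 CPM in treated and 237 and 240 CPM in vehicle libraries. JUND, an AP-1 subunit, had 321 and 296 against 275 and 352 CPM. Xenobiotic response genes had a median of 0.04 over 6, with ABCB1, a drug efflux pump, at 0.07 and CYP2B6, a liver cytochrome P450, at 0.01. The groups overlapped for these 4 genes.

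Genes of ribosome rescue and quality control, which free and clear stalled ribosomes, had a median of 0.05 over 28 transcripts, with 17 above 0, 7 with both treated libraries above both vehicle libraries (25%, beside 14.5% of all transcripts) and 5 below (17.9%, beside 15.3%). RACK1, a scaffold on the small ribosomal subunit, had 1046 and 1104 CPM in treated and 1159 and 1233 CPM in vehicle libraries. The groups did not overlap and the log2 fold change was -0.15 ± 0.08 (SE, n = 2 a side; unadjusted p = 0.0864, edgeR adjusted p = 0.999). VCP, the ATPase that extracts ubiquitylated proteins, had 1080 and 1077 against 1090 and 1104 CPM, also without overlap.

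Ribosomal protein and proteasome mRNAs lay slightly below 0. Of 84 transcripts of cytosolic ribosomal proteins, 69 were below 0 (median -0.05), and both treated libraries were below both vehicle libraries for 29 (34.5%, beside 15.3% of all transcripts). RPL26L1, a relative of RPL26, was the only 1 of the 84 with an unadjusted p under 0.05, beside 1.93% of all transcripts. It had 36.3 and 35.5 CPM in treated and 46.5 and 44.2 CPM in vehicle libraries. The log2 fold change was -0.34 ± 0.12 (SE, n = 2 a side; unadjusted p = 0.0193, edgeR adjusted p = 0.999). Reads of RPL26L1 can be shared with RPL26. Ribosomal proteins took 9.24% and 9.38% of the treated reads and 9.83% and 9.56% of the vehicle reads, a difference of -0.381 percentage points (two-sided exact permutation test, 2 of 6 arrangements, the smallest share that 2 against 2 allows). The difference was -0.242 without vehicle replicate 4 and -0.521 without vehicle replicate 5. Of 32 proteasome transcripts, 20 were below 0 (median -0.05). Both treated libraries lay below both vehicle libraries for 14 (43.8%, beside 15.3% of all transcripts) and above for 3 (9.38%, beside 14.5%). ADRM1, a ubiquitin receptor, had 613 and 603 against 634 and 662 CPM, and PSMD2, a subunit of the regulatory particle, 846.1 and 866 against 897 and 867 CPM, without overlap in either. Without vehicle replicate 4 the medians were 0.02 for ribosomal proteins and 0.01 for the proteasome, so the sign of both rested on that library.

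Differences followed the length of the CDS. Among transcripts with a mean of at least 50 reads, the median log2 fold change went from -0.05 in the 448 of up to 100 codons, over -0.03 in the 1556 of 201 to 300 and 0.02 in the 3138 of 501 to 1000, to 0.08 in the 1261 of over 1000 codons, where 75.7% were above 0. The Spearman correlation of the log2 difference with CDS length, over the 8563 transcripts above, was 0.20, 0.18, 0.20 and 0.20 in the 4 pairs of a treated and a vehicle library, and -0.01 and 0.04 in the pairs within a group. All these pairs share libraries. The median CDS was 146.5 codons for the ribosomal proteins, 294.5 for the proteasome and 129 for the histones, beside 400 over all transcripts tested. In the 808 transcripts of 101 to 150 codons the median log2 fold change was -0.0446, with 37.7% above 0. The part of CDS length in the list medians was not tested.

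In several lists the libraries differed more by replicate number than by group. Cholesterol synthesis and SREBP2 targets had a median log2 fold change of -0.08 over 25 transcripts, with 22 below 0. The groups did not overlap for 1 of the 25, which was higher in the treated libraries (4%, beside 14.5% of all transcripts), and both treated libraries were below for 0 (beside 15.3%). Their median was 0.43 lower in treated replicate 4 than in treated replicate 5 and 0.24 lower in vehicle replicate 4 than in vehicle replicate 5. Between treated and vehicle it was -0.16 for the replicates numbered 4 and 0.01 for those numbered 5. EBP, a sterol isomerase, had 396 and 523 CPM in treated and 464 and 567 CPM in vehicle libraries, where the 2 libraries numbered 5 were the high ones. In fatty acid synthesis (9 transcripts, median -0.08), SCD, the stearoyl-CoA desaturase, had 337 and 526 CPM in treated and 364 and 558 CPM in vehicle libraries, and FASN, the fatty acid synthase, 971 and 1030 against 934 and 1048 CPM. For SCD the 2 libraries numbered 5 were the high ones and the 2 numbered 4 the low ones.

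Replication-dependent histones, made in S phase, had a median of -0.10 over 57 transcripts with 43 below 0. They were 0.38 lower in replicate 4 than in replicate 5 of the treated and 0.53 lower in replicate 4 than in replicate 5 of the vehicle libraries. H2AC19 had 55.4 and 77.9 CPM in treated and 56.3 and 84.9 CPM in vehicle libraries, and H4C5 51.3 and 65.1 against 54.5 and 80.1 CPM. Most histone mRNAs end in a stem-loop without a polyA tail, so these polyA libraries hold only part of them, and copies of near-identical sequence share reads. Plasma protein transcripts (41, median -0.06) were 0.30 lower in treated replicate 4 than in treated replicate 5 and 0.07 lower in vehicle replicate 4 than in vehicle replicate 5. SERPINA1, the antitrypsin gene, had 1699 and 2096 CPM in treated and 1906 and 2099 CPM in vehicle libraries, and AFP 2664 and 2979 against 2845 and 2906 CPM.

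**Figure D5:**
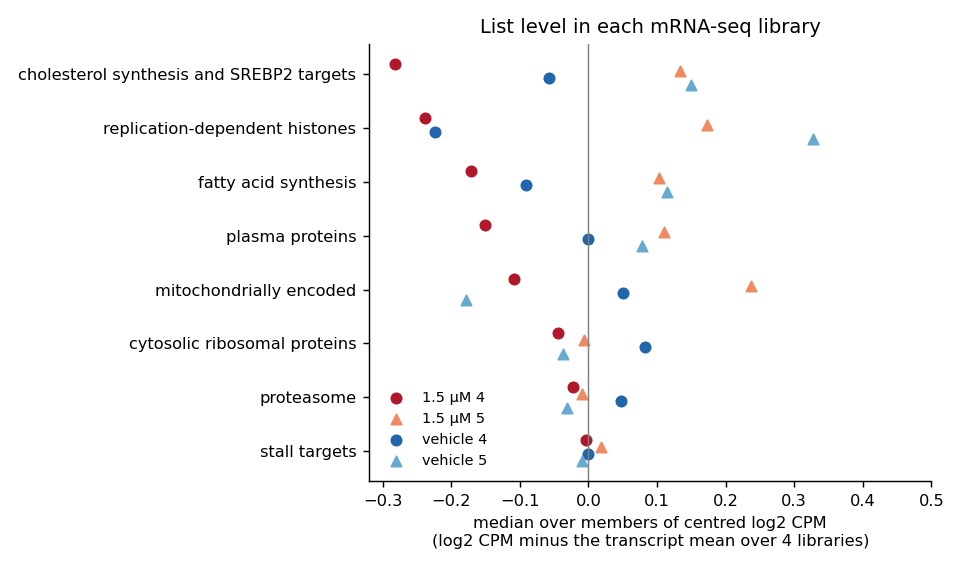
Level of 8 gene lists in each mRNA-seq library: the median over members of log2 CPM after subtracting each transcript's mean over the 4 libraries (horizontal). Circles are replicates numbered 4 and triangles those numbered 5, red for 1.5 µM and blue for vehicle. For cholesterol synthesis, histones and fatty acid synthesis both circles lie below 0 and both triangles above.

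Mitochondrially encoded mRNAs had the highest median, 0.12 over 13 transcripts with 12 above 0, but the order of the libraries was not that of the groups. They took 6.37% and 7.99% of the reads in treated and 6.89% and 6.62% in vehicle libraries, so that the 2 treated libraries were the lowest and the highest (difference 0.426 percentage points, two-sided exact permutation p = 1). MT-ND5, a subunit of respiratory complex I, had 4216 and 4820 CPM in treated and 4091 and 3430 CPM in vehicle libraries, a log2 fold change of 0.26 ± 0.10 (SE, n = 2 a side; unadjusted p = 0.0278, edgeR adjusted p = 0.999). Its log2 fold change was 0.15 without vehicle replicate 5 and 0.40 without vehicle replicate 4. It was the only one of the 13 whose groups did not overlap (7.69% above, beside 14.5% of all transcripts, and 0 below, beside 15.3%). The 10 most read transcripts took 8.18% and 9.31% of the treated and 8.67% and 8.76% of the vehicle reads. The shares of histones (0.117% and 0.152% treated, 0.115% and 0.170% vehicle) and of plasma proteins (1.93% and 2.14% treated, 2.02% and 2.14% vehicle) overlapped as well, each with an exact permutation p of 1.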

How the data were processed

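The authors aligned fragmented polyA reads and deposited whole-number read counts per codon of each coding sequence, without normalization. The submitters' processing notes name Bowtie 1.1.2, kallisto 0.42.5, DESeq and GRCh38. The members and gene lists were chosen with earlier results of these data known. Counts were summed per transcript. Names came from GENCODE for 11270 transcripts and from a supplementary table of the study, used for names alone, for 228, and 827 had none. Some stall targets of the compound and some genes that the naming rule below picks are not reported here.

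Transcripts kept by edgeR's filterByExpr (version 4.0.16, R 4.3.3) were scaled by TMM and tested with the quasi-likelihood test, with Benjamini-Hochberg adjustment and a threshold of 0.1. SE is the log2 fold change divided by the root of F. The fit before against after codon 50 took the library as a factor. Scripts were tested on simulated data. Alternatives were DESeq2 1.42.0, other size factors and filters, the replicate block and leaving out each library. Named genes were the stall targets, the 10 highest and 10 lowest log2 fold changes among non-overlapping transcripts with a mean of at least 50 reads, transcripts past the threshold in an alternative fit, EFNA3, and of each list the members at an unadjusted p under 0.05 or else the 2 most read. At this depth, counting error is given by read number in the report. CPM is relative to the TMM-scaled library. Library differences used log2 of CPM plus 0.01.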

Additional observations from a re-analysis of the deposited data

How the results depend on the processing

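The count of 0 transcripts past the threshold became 1 with DESeq2 (FOXC1, adjusted p = 0.0723), 2 by the Z-score of log2 changes in bins of 300 transcripts beyond 3 in both pairs, and 0 to 2 when a library was left out, where FOXC1 and ENST00000604646 passed without treated replicate 5 and ENST00000399974 without vehicle replicate 4. The other fits of that comparison, an FDR of 0.05 included, gave 0. The count of 228 at an unadjusted p under 0.05 became 103 with DESeq2, 439 with all 8 libraries of the second study in the fit and 378 with the replicate block, and ran from 118 to 1772 when a library was left out. The labels do not say what the replicate number marks. The differences of replicate 4 minus replicate 5 correlated at 0.0807 between the treated and vehicle libraries. Between mRNA-seq and footprint libraries, which the paper prepared from the same sample, they correlated at 0.111 (vehicle) and 0.217 (treated). With values that low for the same samples, this check cannot tell whether the numbers pair the libraries. The main fit took the libraries as unpaired. The cholesterol synthesis, fatty acid synthesis and histone lists did follow the number in both groups, and the replicate block is the fit that takes it into account. The block left 0 past the threshold. The count at codon 50 ran from 0 to 1082 when a library was left out. The causes were not tested.

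Counting codons after 50 alone moved the list median to -0.0551 for the integrated stress response and 0.0135 for p53 targets. When a library was left out, list medians ran from -0.00612 to 0.0273 (stall targets), -0.074 to -0.0325 (integrated stress response), -0.0632 to 0.0572 (heat shock response), -0.0658 to 0.0147 (NRF2 targets), -0.0559 to 0.0297 (p53 targets), -0.0214 to 0.0995 (xenobiotic response), -0.337 to 0.0617 (cholesterol synthesis and SREBP2 targets), -0.223 to 0.0997 (fatty acid synthesis), -0.184 to 0.0757 (plasma proteins), -0.00813 to 0.109 (ribosome rescue and quality control), -0.0623 to 0.0113 (proteasome), -0.0964 to 0.0175 (cytosolic ribosomal proteins), -0.368 to 0.218 (replication-dependent histones), -0.0793 to 0.313 (mitochondrially encoded), -0.111 to 0.00884 (ER chaperones and unfolded protein response) and -0.0399 to 0.0772 (immediate early genes), so that only that of the integrated stress response kept its sign in all 4 fits. Signs turned after codon 50 for PCBP2 (-0.00742) and RPL27 (0.0532), and for PODXL2 at 0.00414 with no filter, 0.00253 with a mean of at least 50 reads, 0.0073 after codon 50 and 0.00307 with all 8 libraries. Leaving out the 3 most read codons of every transcript, an alternative chosen after seeing the data, gave 191 at an unadjusted p under 0.05 and 0 past the threshold, and turned CEBPB (-0.135) and FASN (-0.00406). Leaving out a library turned the sign of BCAP31 (-0.0224 to 0.0736), BRI3BP (-0.0289 to 0.106), CDH1 (-0.0973 to 0.0426), DPCD (-0.205 to 0.0434), LTBP3 (-0.0282 to 0.267), MDK (-0.034 to 0.0205), MST1 (-0.00651 to 0.311), PCBP2 (-0.0225 to 0.0605), PLA2G15 (-0.196 to 0.14), PODXL2 (-0.0179 to 0.022), RPL27 (-0.0713 to 0.0477), SUMF1 (-0.299 to 0.181), SUMF2 (-0.127 to 0.0276), USO1 (-0.21 to 0.129), CALR (-0.135 to 0.0122), P4HB (-0.175 to 0.116), FTH1 (-0.111 to 0.0132), EBP (-0.383 to 0.0207), FASN (-0.0658 to 0.105), SCD (-0.454 to 0.249), HSPA8 (-0.246 to 0.0521), CCN2 (-0.0588 to 0.247), JUND (-0.191 to 0.17), BAX (-0.136 to 0.0587), TNFRSF10B (-0.0983 to 0.0814), AFP (-0.11 to 0.0528), SERPINA1 (-0.237 to 0.0677), H2AC19 (-0.352 to 0.246), H4C5 (-0.463 to 0.0991), CYP2B6 (-0.0845 to 0.102), EFNA3 (-1.57 to 0.479). FOXC1 ran from 0.62 to 1.32. Of the others that kept their sign, those that moved by over 1.5 times and are not given in the report were HSD17B11 (0.0195 without treated replicate 5, 0.347 without treated replicate 4), ABCB1 (0.0195 without vehicle replicate 5, 0.127 without vehicle replicate 4), FTL (-0.00294 without vehicle replicate 4, -0.0613 without vehicle replicate 5), PSMD2 (-0.0178 without vehicle replicate 4) and, without vehicle replicate 5, ADRM1 (-0.0544), RACK1 (-0.102) and VCP (-0.00879). With 2 libraries a side, the 95% interval of transcripts with 10 to 30 reads reached a median of 2.387-fold to either side.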
